A study of Mus musculus with 7 samples.

Results

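The enzymes of de novo fatty acid synthesis were examined as 10 genes, Slc25a1, Acly, Acss2, Acaca, Acacb, Fasn, Elovl6, Scd1, Scd2 and Me1. They were chosen by gene symbol among probe sets that the platform table pairs with exactly 1 symbol. All 10 were found, on 12 of the 21789 such probe sets, with 2 probe sets each for Acaca and Me1, and the array's 21789 probe sets stood for 19938 genes. The tissue was epididymal white fat from male mice of 17 weeks on chow, in 3 samples of aP2-XBP1 transgenic mice and 4 of wild type C57Bl/6J mice. The transgenic mice were made on the same background. In the aP2-XBP1 mice the promoter of Fabp4 (aP2), a fatty acid carrier of adipocytes that some macrophages also express, drives XBP1, which switches on genes of the unfolded protein response. The labels do not say whether the controls were littermates, how many transgenic lines were used or whether each sample is 1 animal. The p-values below therefore speak only of the variation among these 7 samples, part of which could be technical.

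De novo fatty acid synthesis builds palmitate in the cytosol from acetyl-CoA. Citrate leaves the mitochondrion through Slc25a1 and is split by Acly into acetyl-CoA and oxaloacetate, while Acss2 makes acetyl-CoA from acetate. The carboxylases Acaca and Acacb turn acetyl-CoA into malonyl-CoA, Fasn joins these units into palmitate, Elovl6 lengthens palmitate to stearate and Scd1 and Scd2 place a double bond in the chain. Me1 supplies part of the NADPH that Fasn consumes. In fat and liver these genes are known as targets of the transcription factors SREBP-1c and ChREBP and to answer to insulin and carbohydrate feeding.

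Values are log2 expression as deposited, made with RMA, so that a step of 1 is a doubling and levels of different probe sets cannot be set against each other. All 7 arrays had medians between 3.99 and 4.04. Xbp1 (10374035) read 9.76, 9.99 and 9.66 in transgenic replicates 1 to 3, against 8.90, 9.07, 8.94 and 9.19 in wild type replicates 1 to 4. Adipocyte markers were bright in all samples. Fabp4 read 12.24 to 12.34 in transgenic and 11.77 to 12.31 in wild type fat. The samples also differed in tissue content, and this divided the wild type group. Serpina1f, a gene of the epididymis, read 2.90, 3.73 and 2.83 in transgenic fat, against 10.70, 2.74, 10.84 and 11.50 in wild type replicates 1 to 4. Wild type replicate 2 was thus the only control in which Serpina1f was low, and the enzymes' differences are also given against that sample alone.

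All 10 enzymes had a higher mean in transgenic fat, but 0 of the 12 probe sets passed the test (limma, adjusted p from 0.622 to 0.669 over all probe sets tested). Over the whole array 0 probe sets passed in either direction (0% of 21789), with 1050 higher (4.82%) and 679 lower (3.12%) at an unadjusted p under 0.05. Of all genes, taken with 1 probe set each, 53.8% had a higher transgenic mean and 46.2% a lower one. The enzymes' differences were large beside those of other genes. The list was chosen with earlier results of these data known, so here and below its shares beside all genes are description and not a test. The difference was at least 1, a doubling, for 7 of the 10, against 44 of 19938 genes (0.221%), and Acacb, which rounds to 1.00, fell just under that size. Elovl6, Acss2 and Acly took places 2, 3 and 4 among all genes by the size of a higher mean. The median difference of the 10 was 1.59, against 0.01 over all genes. At an unadjusted p under 0.05, limma found 8 of the 10 higher, and 0 lower, against 4.96% and 2.94% of all genes. Groups were higher without overlap for 3 of the 10, Acly, Acss2 and Acacb, against 3.55% of all genes (3.38% of probe sets). None of the 10 was lower without overlap, as were 2.24% of all genes (2.44% of probe sets).

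**Figure D1:**
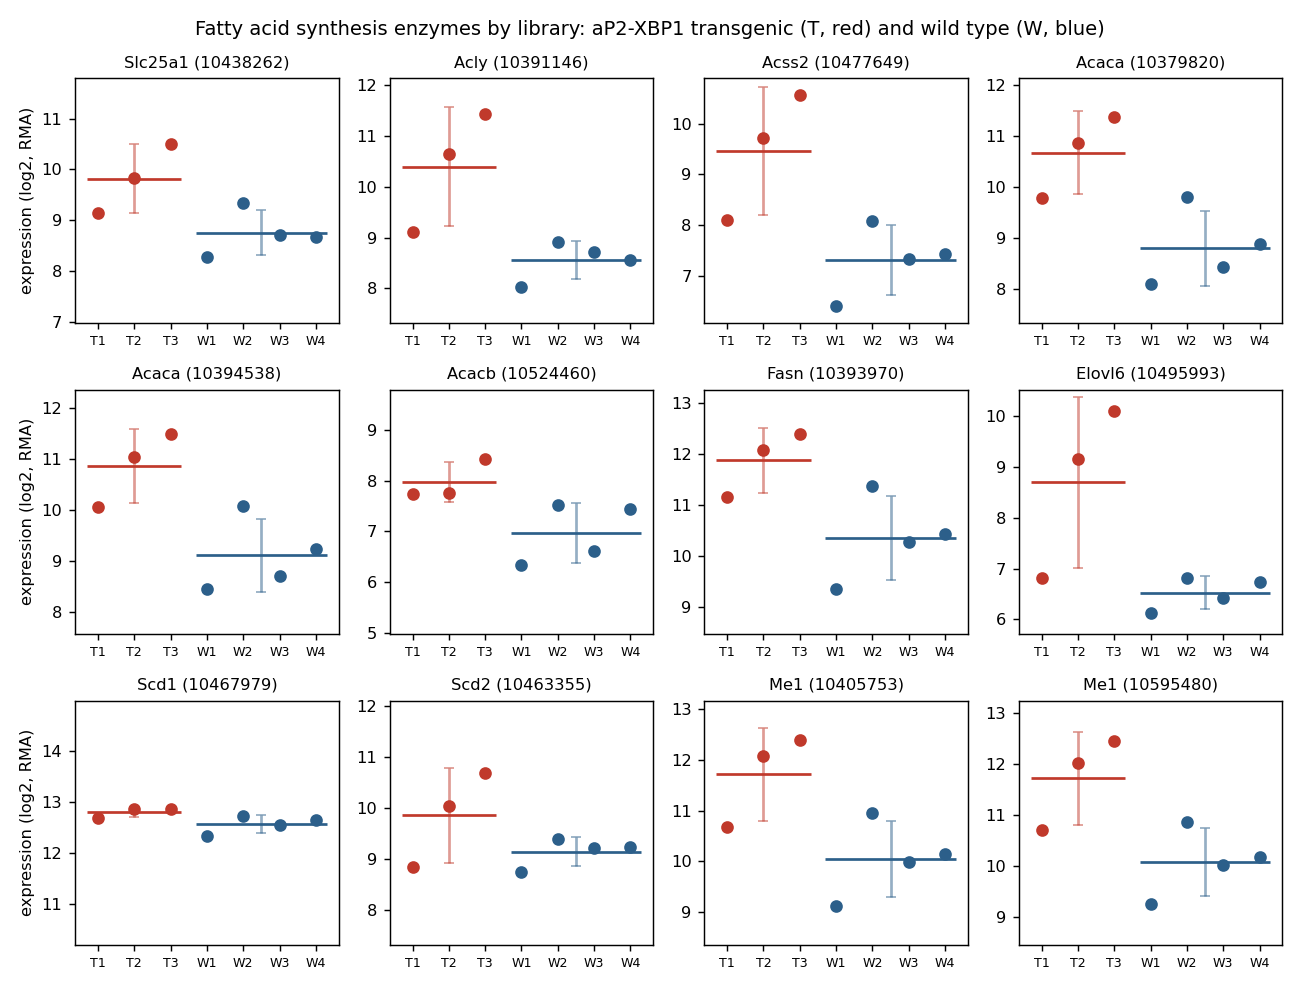
Log2 expression (RMA) of the 12 probe sets in each sample, aP2-XBP1 transgenic (T, red) left and wild type (W, blue) right, with group means as lines and SDs as bars; every panel spans the same number of log2 units. Sample T1 lies close to W2 in most panels, while T2 and T3 lie above all wild type samples for all 10 genes.

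The promoters of 8 of the 10 genes were in the RefSeq table used here (build GRCm38.p6), with 9 starts in all, since Me1 has 2. Scd1 and Scd2 had no entry. The letters below are the 150 bases before the transcript start, 5′ to 3′ on the gene's strand, shown for both enzymes of acetyl-CoA supply, whose groups did not overlap (Acly, Acss2), for the central enzyme (Fasn), for the gene with the largest difference (Elovl6) and for the one gene that holds a whole ER stress response element, CCAAT and CCACG with 9 bases between them (Acacb). Capitals mark CCAAT or its complement ATTGG, the letters bound by NF-Y, and ACGTG or its complement CACGT, the core letters of XBP1-type sites, and in Acacb also the CCACG of the whole element. Which start is used in fat is not known from these data.
Acly, chr11:100528001-100528150, minus strand: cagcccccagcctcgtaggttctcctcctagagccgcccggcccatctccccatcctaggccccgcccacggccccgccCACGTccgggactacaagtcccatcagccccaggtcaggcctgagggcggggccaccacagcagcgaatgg
Acss2, chr2:155517893-155518042, plus strand: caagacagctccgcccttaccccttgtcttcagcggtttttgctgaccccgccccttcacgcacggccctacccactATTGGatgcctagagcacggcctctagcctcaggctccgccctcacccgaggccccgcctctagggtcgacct
Fasn, chr11:120824548-120824697, minus strand: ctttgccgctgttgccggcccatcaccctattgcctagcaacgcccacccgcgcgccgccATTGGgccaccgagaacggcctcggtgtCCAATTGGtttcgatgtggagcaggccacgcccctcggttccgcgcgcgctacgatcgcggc
Elovl6, chr3:129532236-129532385, plus strand: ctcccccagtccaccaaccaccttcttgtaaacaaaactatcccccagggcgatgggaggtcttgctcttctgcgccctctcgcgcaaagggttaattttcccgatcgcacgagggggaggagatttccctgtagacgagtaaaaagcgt
Acacb, chr5:114165368-114165517, plus strand: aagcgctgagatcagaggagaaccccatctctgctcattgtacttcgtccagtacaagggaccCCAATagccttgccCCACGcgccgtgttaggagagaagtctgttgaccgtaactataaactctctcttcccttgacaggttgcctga

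Over the 250 bases before each start, on both strands, CCAAT was present in 5 of the 8 genes (Acacb, Acss2, Fasn, Me1 and Slc25a1) and in 33.8% of all 32851 promoters of the table. Fasn held it at 3 places, of which a pair overlaps. ACGTG was present in 4 of the 8 (Acacb, Acly, Me1 and Slc25a1) and in 16.6% of all promoters. In Slc25a1 it lies inside CACGTG, the letters bound by USF and related factors, which 6.02% of all promoters hold. CCACG, the end of the ER stress response element, was present in 4 of the 8 and in 28.3% of all promoters. The whole element, to which ATF6 is known to bind together with NF-Y, was looked for after these hits were seen. It was present in 1 of the 8, Acacb, from 87 to 69 bases before the start, and in 37 of all promoters (0.113%). The Sp1 letters GGGCGG were present in 4 of the 8 and in 32.7%. The letters TCACNCCA, a core of the sterol regulatory element, were in 0 of the 8 genes and in 3.67% of all promoters. Elovl6 and Acaca held none of these in the window.

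The citrate carrier Slc25a1 (10438262) read 9.14, 9.83 and 10.50 in transgenic replicates 1 to 3, against 8.28, 9.35, 8.72 and 8.68 in wild type replicates 1 to 4. The groups overlapped, because wild type replicate 2 lay above transgenic replicate 1. The difference was 2.09-fold (log2 difference 1.06, SE 0.37, limma adjusted p = 0.622).

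Acetyl-CoA supply showed larger differences. Acly (10391146), ATP citrate lyase, read 9.12, 10.65 and 11.42 in transgenic fat, against 8.04, 8.92, 8.71 and 8.56 in wild type fat. Every transgenic sample lay above every wild type sample, although transgenic replicate 1 exceeded wild type replicate 2 by 0.19 only. The means differed 3.58-fold (log2 difference 1.84, SE 0.54, limma adjusted p = 0.622). Acss2 (10477649), the cytosolic acetyl-CoA synthetase, read 8.10, 9.72 and 10.56 in transgenic fat, against 6.41, 8.08, 7.34 and 7.44 in wild type fat. Its groups were separated by 0.02, again between transgenic replicate 1 and wild type replicate 2. Acss2 had the widest distance between single samples, 17.7-fold between transgenic replicate 3 and wild type replicate 1, and a mean difference of 4.41-fold (log2 difference 2.14, SE 0.64, limma adjusted p = 0.622).

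Both acetyl-CoA carboxylases, which make malonyl-CoA, had higher transgenic means. The first Acaca probe set (10394538) read 10.07, 11.04 and 11.49 in transgenic fat, against 8.45, 10.07, 8.69 and 9.22 in wild type fat, and differed 3.38-fold (log2 difference 1.76, SE 0.49, limma adjusted p = 0.622). The second (10379820) read 9.78, 10.87 and 11.38 in transgenic fat, against 8.09, 9.80, 8.43 and 8.87 in wild type fat, a 3.68-fold difference. Once each was centred on its own mean, the Acaca probe sets differed by at most 0.15 in any sample, so both gave the same picture. Wild type replicate 2 lay level with transgenic replicate 1 on both, 0.02 or less above it. Acacb (10524460), the form at the outer mitochondrial membrane whose malonyl-CoA restrains fatty acid oxidation, behaved differently within the transgenic group. It read 7.73, 7.76 and 8.43 in transgenic fat, against 6.34, 7.51, 6.61 and 7.44 in wild type fat. The groups did not overlap, and the means differed 2.00-fold (log2 difference 1.00, SE 0.35, limma adjusted p = 0.622). Transgenic replicates 1 and 2 were alike here, whereas for Acaca they were about 1 unit apart, and the Acacb range was smaller in transgenic fat (0.70) than in wild type fat (1.17).

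Fasn (10393970), fatty acid synthase, read 11.15, 12.08 and 12.39 in transgenic fat, against 9.35, 11.37, 10.26 and 10.43 in wild type fat. Transgenic replicate 1 lay below wild type replicate 2 by 0.21 and above the other wild type samples. The mean difference was 2.87-fold (log2 difference 1.52, SE 0.51, limma adjusted p = 0.622). Me1 (10595480), malic enzyme, read 10.70, 12.02 and 12.45 in transgenic fat, against 9.25, 10.86, 10.03 and 10.17 in wild type fat. Its other probe set (10405753) read 10.68, 12.08 and 12.39 in transgenic fat, against 9.13, 10.94, 9.99 and 10.15 in wild type fat. Centred on their own means, the Me1 probe sets were at most 0.10 apart, and both placed transgenic replicate 1 below wild type replicate 2. They differed 3.14-fold and 3.16-fold between genotypes (limma adjusted p = 0.622 for both).

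Elovl6 (10495993), the elongase from palmitate to stearate, had the largest mean difference of the 10 and the least even one. It read 6.82, 9.15 and 10.10 in transgenic fat, against 6.13, 6.82, 6.41 and 6.74 in wild type fat. Transgenic replicate 1 lay within 0.01 of wild type replicate 2, while the other transgenic samples exceeded every wild type sample by more than 2 units. The 4.48-fold mean difference (log2 difference 2.16, SE 0.74, limma adjusted p = 0.622) thus came from transgenic replicates 2 and 3. Without transgenic replicate 3 it was 1.46 and without transgenic replicate 1 it was 3.10 on the log2 scale.

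The desaturases had the smallest differences. Scd1 (10467979) read 12.69, 12.86 and 12.87 in transgenic fat, against 12.33, 12.73, 12.56 and 12.65 in wild type fat. This is a 1.18-fold difference (log2 difference 0.24, SE 0.11, limma adjusted p = 0.634) with overlapping groups. Only 5 probe sets of those tested had a higher mean than Scd1, and the brightest value on any array was 13.53, so the probe set sits near the top of the array's range. Whether that limits its difference was not tested. Scd2 (10463355) read 8.84, 10.04 and 10.69 in transgenic fat, against 8.73, 9.38, 9.22 and 9.23 in wild type fat. It was the one enzyme for which transgenic replicate 1 lay below wild type replicates 2, 3 and 4. Its mean difference was 1.64-fold (log2 difference 0.71, SE 0.43, limma adjusted p = 0.669). The related Scd3 and Scd4, named after their values were seen, were dim in all samples, Scd3 (10463347) at 2.83 to 3.15 in transgenic and 2.85 to 2.97 in wild type fat, and whether transcripts of one Scd gene bind probes of another was not tested.

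The same samples were high and low for nearly every enzyme. Transgenic replicate 3 was the highest of the 7 samples for 10 of 10 genes, and wild type replicate 1 the lowest for 10 of 10. Over all genes these positions occurred for 15.5% and 20.1%. Wild type replicate 2 was the highest wild type sample and transgenic replicate 1 the lowest transgenic sample for all 10 genes, against 27.7% and 41.6% of all genes. The mean of the 10 enzymes was 9.44, 10.51 and 11.09 in transgenic replicates 1 to 3, against 8.33, 9.51, 8.86 and 9.06 in wild type replicates 1 to 4. On this mean, transgenic replicate 1 lay just below wild type replicate 2 and above the other wild type samples. For 7 of the 10 genes transgenic replicate 1 was at or below wild type replicate 2, as for 53.2% of all genes, a share not far from that of the enzymes. For 9 of the 10 it was above the other wild type samples, as for 28.2% of all genes. Transgenic replicates 2 and 3 both exceeded every wild type sample for all 10, as they did for 8.35% of all genes. Xbp1 did not order the transgenic samples this way. Its highest value was in replicate 2 and its lowest, 9.66, in replicate 3, where the enzymes were highest. The transgenic SD of Xbp1 was only 0.17, and its RNA level does not measure the activity of XBP1. Whether the enzymes follow that activity was not tested.

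**Figure D2:**
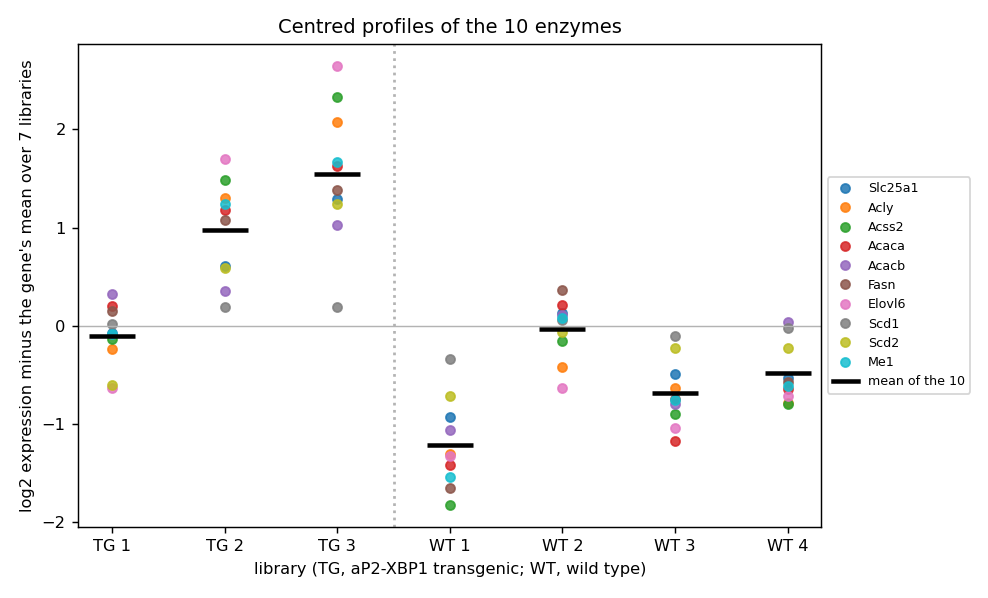
Log2 expression of each enzyme minus its own mean over the 7 samples (1 probe set per gene, coloured points), with the mean of the 10 enzymes as a black bar, transgenic samples left and wild type right. The mean runs from -0.11 in TG 1 to 1.55 in TG 3, and WT 2 at -0.03 lies next to TG 1.

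The spread within the transgenic group was wide. The SD of 3 transgenic samples was 1.69 for Elovl6, the largest of all 21789 probe sets, 1.25 for Acss2, 1.17 for Acly and 0.94 for Scd2. The median transgenic SD was 0.82 over the 10 enzymes and 0.09 over all probe sets. A transgenic range of 1 or more was found for 8 of the 10 and for 0.742% of all genes. Transgenic replicate 3 exceeded transgenic replicate 1 by 9.73-fold for Elovl6, 5.51-fold for Acss2, 4.95-fold for Acly and 1.13-fold for Scd1. In wild type fat the median SD was 0.51 for the enzymes and 0.12 for all probe sets. The SD was larger in transgenic than in wild type fat for 7 of the 10 genes and for 34.0% of all genes. It was smaller for Acacb, Fasn and Scd1. The ratio of the SDs, transgenic over wild type, ran from 0.59 for Scd1 to 5.35 for Elovl6. No test of the SDs was made with 3 and 4 samples.

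**Figure D3:**
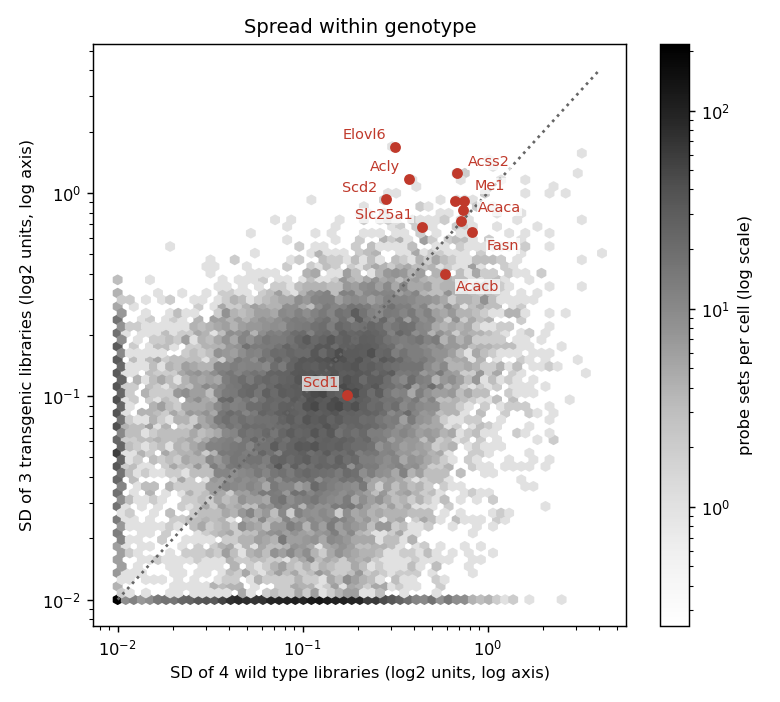
SD of the log2 values in 3 transgenic samples (vertical, log axis) against 4 wild type samples (horizontal, log axis) for all 21789 probe sets as grey cells and for the 12 enzyme probe sets as red points; SDs under 0.01 are drawn at 0.01 and the dotted line marks equal SDs. Elovl6, Acly, Scd2 and Acss2 lie above the line, and Scd1 lies among the bulk of the array.

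Set against wild type replicate 2 alone, a comparison chosen after the data were seen, all 10 enzymes still had a higher transgenic mean, as had 52.8% of all genes. The median difference was then 0.65, against 1.59 with all 4 controls. With the value for all 4 controls in brackets, the differences were 1.87 (2.16) for Elovl6, 1.47 (1.84) for Acly and 1.38 (2.14) for Acss2. They were 0.79 (1.76) for Acaca probe set 10394538, 0.87 (1.65) for Me1 probe set 10595480 and 0.51 (1.52) for Fasn. For Slc25a1 they were 0.47 (1.06), for Scd2 0.47 (0.71), for Acacb 0.46 (1.00) and for Scd1 0.07 (0.24). With a lone control and 3 transgenic samples, limma's adjusted p lay between 0.887 and 0.917 for the 12 probe sets, and the lone control is assumed to vary like the transgenic samples. The 4 samples in which Serpina1f was low had similar adipocyte marker means (7 genes measured, among them Plin1, Lipe and Adipoq), at 10.64, 10.58 and 10.80 in transgenic replicates 1 to 3 and 10.62 in wild type replicate 2. The other wild type replicates, 1, 3 and 4, read 9.92, 10.13 and 10.26. In bulk tissue fewer adipocytes and less of a transcript per adipocyte cannot be told apart.

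**Figure D4:**
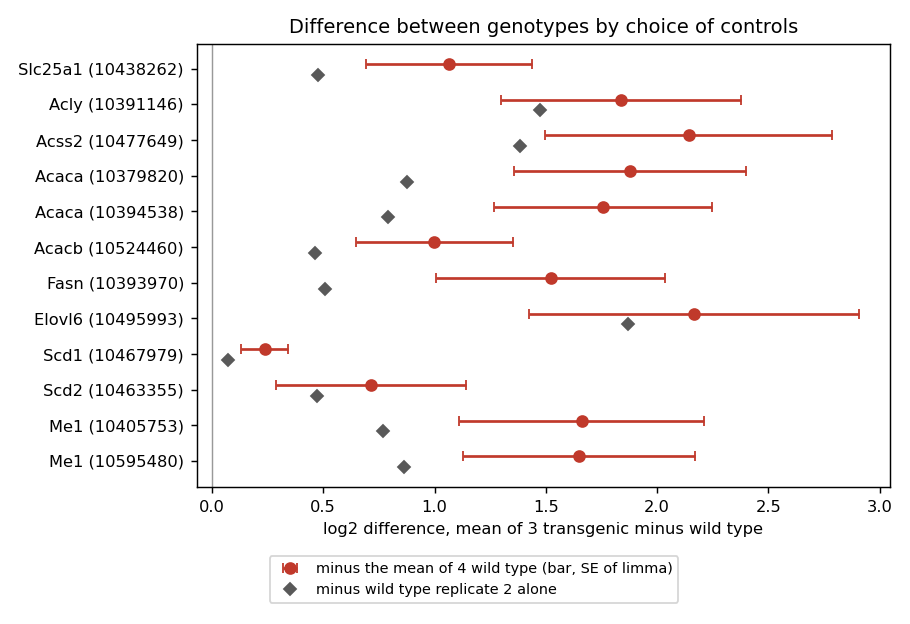
Log2 difference of each enzyme probe set, mean of 3 transgenic samples minus the mean of 4 wild type samples (red, bar is the SE from limma) and minus wild type replicate 2 alone (grey diamonds, no error bar). All values lie above 0, and every diamond lies to the left of its red point.

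Markers of smooth muscle and of the epididymis divided the wild type samples, with wild type replicate 2 at the level of the transgenic samples. Smooth muscle markers (7 of 7 measured, all with a lower transgenic mean, median difference -2.05 and -0.31 against wild type replicate 2 alone) had list means of 6.97, 7.30 and 6.73 in transgenic fat, against 9.46, 7.23, 9.46 and 10.02 in wild type replicates 1 to 4. Myh11, the smooth muscle myosin, read 8.27, 8.53 and 7.75 in transgenic fat, against 10.92, 8.21, 10.92 and 11.51 in wild type fat. Among the transgenic samples the smooth muscle mean was highest in replicate 2 and lowest in replicate 3, where the enzymes were highest. Epididymal epithelium markers (7 of 9 measured) had 4 genes with a higher and 3 with a lower transgenic mean, with a median difference of 0.10. Their list means were 3.30, 3.05 and 2.73 in transgenic replicates 1 to 3, against 5.57, 2.63, 5.60 and 6.02 in wild type replicates 1 to 4. Within that list Spink8 and Defb42 followed Serpina1f, and the other 4 genes did not. Of these, named after their values were seen, Adam7 and Lcn8 were highest in transgenic replicate 1, at 4.69 and 4.14, and Lcn5 and Rnase10 stayed under 4 in all samples. The part of these cells in the enzymes' differences was not tested. The comparison with wild type replicate 2 cannot measure it, since 1 sample does not tell tissue content from other variation. Macrophage markers (6 of 6 measured) had list means of 8.08, 8.20 and 8.38 in transgenic fat, against 8.97, 8.35, 8.98 and 7.56 in wild type fat. Seminal vesicle markers had a list mean of 2.34, 2.26 and 3.71 in transgenic fat, against 2.39, 6.91, 2.43 and 2.41 in wild type replicates 1 to 4. This mean was thus higher than elsewhere in transgenic replicate 3, and more so in wild type replicate 2, but not every gene of the list was high in transgenic replicate 3. Svs2, a secreted seminal vesicle protein named after its values were seen, read 5.22 in transgenic replicate 3 and 9.36 in wild type replicate 2, against 2.47 to 2.79 in the other samples. In transgenic replicate 3 Svs4 and Svs5 read 4.22 and 4.52, while Svs6 and Svs3a read only 2.42 and 2.16.

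Enzymes that feed the pathway had smaller differences in the same direction. In carbon supply for citrate, which brings pyruvate into the mitochondrion and makes citrate, 10 of 10 measured genes had a higher transgenic mean, 3 did not overlap and 0 passed, with a median difference of 0.60. For this list and those below, the shares over all genes were 53.8% with a higher mean, 3.55% higher without overlap and 2.24% lower without overlap. Pcx (10460400), pyruvate carboxylase, read 10.26, 10.99 and 11.41 in transgenic fat, against 9.27, 10.32, 9.56 and 9.89 in wild type fat. Mdh2, mitochondrial malate dehydrogenase, differed by 0.41 (SE 0.10, limma adjusted p = 0.622) and did not overlap. Cytosolic NADPH supply, a list mostly of pentose phosphate pathway genes, had 6 of 7 measured genes higher, 1 without overlap and 0 passing, with a median of 0.40. Of its genes that form NADPH themselves, Pgd and Idh1 differed by 0.78 and 0.23 with overlapping groups, and G6pdx was not measured. Tkt (10413542), transketolase of the pentose phosphate pathway, differed by 1.25 (SE 0.35, limma adjusted p = 0.622) without overlap, and Taldo1 by 0.51 with overlapping groups. Against wild type replicate 2 alone the list medians were 0.31 for carbon supply and 0.16 for NADPH supply. The adipocyte markers, 7 of 7 measured with a higher transgenic mean, had a median of 0.40, and 0.03 against wild type replicate 2 alone. Mitochondrial fatty acid synthesis, a separate route that makes the lipoic acid precursor, had 6 of 6 genes higher, 3 of them without overlap and 0 passing. Its median was 0.35, and 0.16 against wild type replicate 2 alone. Ndufab1, its acyl carrier protein, differed by 0.50 without overlap, and Mecr, its last reductase, by 0.64.

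Regulators had a smaller median difference than the enzymes. Of 13 lipogenic regulators measured, 8 were higher in transgenic fat on the mean and 5 lower, 4 were higher without overlap and 0 passed, with a median of 0.23. Against wild type replicate 2 alone the median was 0.06. Srebf1, which encodes SREBP-1, read 8.26, 8.43 and 8.58 in transgenic fat, against 7.63, 8.15, 7.62 and 7.99 in wild type fat. Mlxipl, which encodes ChREBP, read 6.03, 6.00 and 6.39 in transgenic fat, against 5.20, 5.87, 5.27 and 5.60 in wild type fat. Their ranges within transgenic fat were 0.32 and 0.38, while the enzymes ranged from 0.18 for Scd1 to 3.28 for Elovl6. In the same list Thrsp ranged over 1.49 and Insig1, named after its values were seen, over 0.98. Genes that control acetyl-CoA carboxylase, mainly the subunits of its kinase AMPK, had 6 of 9 higher, 2 higher and 1 lower without overlap, 0 passing and a median of 0.05. That median was -0.01 against wild type replicate 2 alone. Prkab1 differed by -0.29 and Prkaa1 by 0.31. Sterol synthesis had 10 of 13 higher, 3 without overlap and 0 passing, with a median of 0.18, and 0.24 against wild type replicate 2 alone. Sc5d differed by 0.60 and did not overlap. Lss, lanosterol synthase, differed by 1.02 (SE 0.30, limma adjusted p = 0.622) and did not overlap either.

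Later steps of fatty acid handling, as far as they were measured, did not share the pattern as a group. Other elongation and desaturation enzymes had 10 of 17 genes higher and 7 lower, 2 higher and 1 lower without overlap, 0 passing and a median of 0.12. That median includes Elovl2, Elovl3, Elovl4, Scd3 and Scd4, which were dim, with means over the 7 samples from 2.37 to 2.94. Tecr and Hsd17b12, reductases of the elongation cycle on which Elovl6 depends, differed by 0.51 and 0.74. The desaturases of polyunsaturated chains, named here after their values were seen, had lower transgenic means. Fads2 read 7.97, 7.79 and 7.36 in transgenic fat, against 9.37, 7.76, 9.48 and 10.16 in wild type fat, and Fads1 differed by -0.60. Against wild type replicate 2 alone the difference was -0.05 for Fads2 and 0.14 for Fads1, so the sign for Fads1 depended on the controls used. Fatty acid activation had 2 of 6 measured genes higher and 4 lower, 0 higher and 2 lower without overlap, 0 passing and a median of -0.05. The list held 8 genes, of which Acsl1 and Acsl3 were not measured. Acsl4, an acyl-CoA synthetase for arachidonate, read 6.62, 6.56 and 6.44 in transgenic fat, against 7.74, 6.91, 8.03 and 8.42 in wild type fat. Fads2 and Acsl4 were highest in the 3 wild type samples in which Serpina1f was high. Transgenic replicate 1 lay above all 3 of these for 9 of the 10 enzymes, and for Scd2 above wild type replicate 1 only. Acss3 differed by 0.68.

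**Figure D5:**
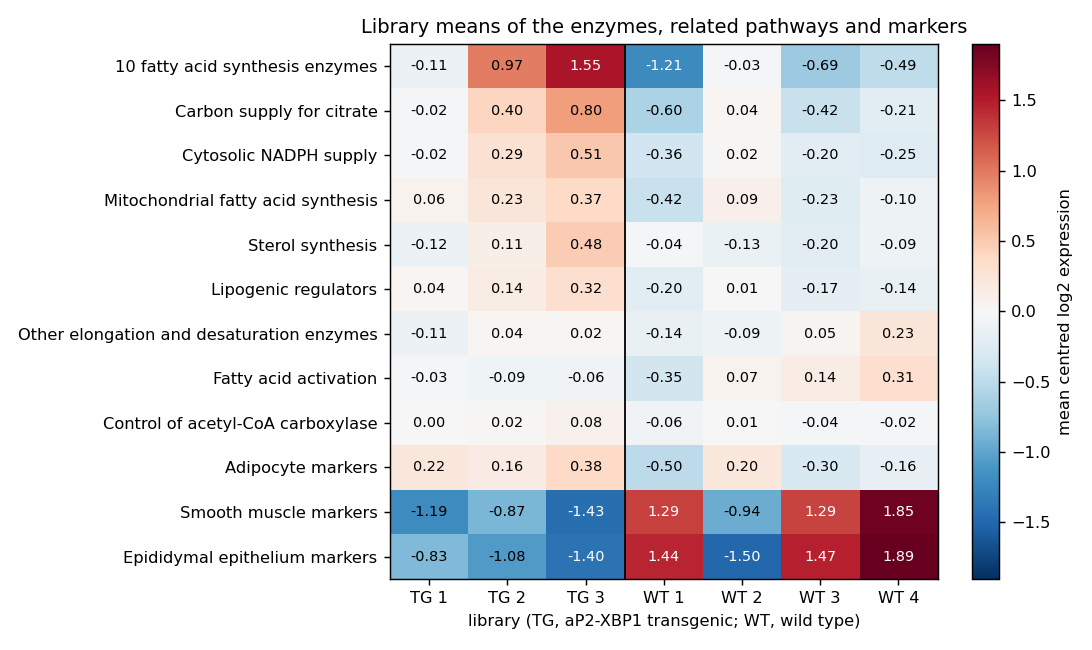
Mean centred log2 expression of the 10 enzymes, 8 related pathway lists and 3 marker lists in each sample, transgenic samples left of the line and wild type samples right; red is above and blue below the 7-sample mean. The row of the 10 enzymes runs from -1.21 in WT 1 to 1.55 in TG 3, the carbon and NADPH supply lists follow it with smaller values, and the smooth muscle and epididymal rows split WT 2 from the other wild type samples.

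Among genes outside the list, those nearest to the enzymes' mean profile were sought by the root mean square distance over the 7 samples, each gene centred on its own mean, among 6150 genes with a mean of at least 6. A gene that did not vary would lie at 0.89. The 10 nearest, in order, were Enpep, Gsta3, Thrsp, Mpc1, Tkt, Pcx, Pnpla3, Aldh1a7, Gbe1 and Aldh1l1, at distances from 0.13 to 0.23. Enpep (10502081), a cell surface aminopeptidase, read 8.64, 9.42 and 9.97 in transgenic fat, against 7.50, 8.71, 7.99 and 8.19 in wild type fat. Thrsp (10565609), a lipogenic protein also called Spot 14, read 10.03, 10.81 and 11.52 in transgenic fat, against 9.08, 9.91, 9.26 and 9.85 in wild type fat. Thrsp, Mpc1, Tkt and Pcx also stand in the pathway lists above. Among the enzymes, which enter the mean themselves, Me1 lay nearest to it at 0.18, and Elovl6 at 0.61 and Scd1 at 0.73 lay farthest, Elovl6 for its wide and Scd1 for its narrow range.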

How the data were processed

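The authors' deposited table held log2 values of 35556 probe sets on 7 arrays, summarised with RMA per the submitters' processing notes. RMA corrects background and brings arrays to a common distribution, so a shift of all genes would not show. No scanner file was analysed here, and the RMA settings are unknown. Names came from the platform table, with 1 symbol for 21789 probe sets, several for 1621 and none for 12146; symbols were checked against RefSeq by Entrez identifier (21698 matched, 0 changed).

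Transgenic was compared with wild type by limma 3.58.1 (lmFit and eBayes, R 4.3.3), with no covariate, two-sided, and Benjamini-Hochberg adjustment at 0.05; the code was tested on simulated data. Counts over genes and lists used the probe set of highest mean per gene. Named were all members, the 2 genes of smallest p in each pathway list, the 10 nearest profiles, Xbp1, Fabp4 and defining markers; other named genes were chosen after their values were seen. Members and lists were chosen with earlier results of these data known. No pair of arrays was identical (at most 18.1% equal values). The number of arrays limits precision. Figures used Python 3.11.15, pandas 2.3.3 and matplotlib 3.10.9.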

Additional observations from a re-analysis of the deposited data

Results flagged for a closer look

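In the 4 wild type samples 7 values stood apart from the other 3 by Dixon's criterion for a gap that is large beside the range, among 66 genes and list means looked at. The criterion marks about 5% of groups by chance, and none of the 12 enzyme probe sets was among them. Wild type replicate 2 was low for Serpina1f (2.74), Spink8 (2.45), Defb42 (2.51), the mean of the epididymal epithelium markers (2.63) and Acta2, smooth muscle actin (10.72). The same sample was high for the mean of the seminal vesicle markers (6.91). Wild type replicate 4 was high for the mean of the male germ cell markers (7.90), against 3.27 to 3.40 in transgenic fat.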

How the results depend on the processing

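The enzymes' differences stayed above 0 for all 12 probe sets in the 15 alternatives, and 0 of the 12 passed in any. The alternatives were a replicate block, quantile normalization again, a common median, no dim probe sets (under the 25th percentile), every row tested, array weights, a robust prior that follows intensity, leaving out each sample, and, chosen after seeing the data, the transgenic samples against wild type replicate 2 alone. The last gave a median difference over the 10 enzymes of 0.65 in place of 1.59. Leaving out 1 sample gave medians from 1.28 (without transgenic replicate 3 or wild type replicate 1) to 2.02 (without transgenic replicate 1). Array-wide calls were 0 to 7 higher and 0 to 84 lower, the 7 and 84 without wild type replicate 2, when the lowest adjusted p of an enzyme was 0.185. Same-numbered samples of the genotypes deviated with correlations of -0.14, -0.09 and 0.06, so the numbers were not taken to pair them; with the replicate block the median was 1.61 and the calls were 0. The smallest adjusted p of the 12 probe sets ran from 0.185 to 0.887 over the alternatives. For Elovl6 the value moved from 1.46 to 3.10, for Fasn from 0.51 to 1.88 and for Scd2 from 0.30 to 1.22. Quantile-normalized values cannot show a change common to all genes, and 3 against 4 arrays, with median SDs over the enzymes of 0.82 in transgenic and 0.51 in wild type fat, limit what could be called.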

Other observations

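A few genes from other lists, named after their values were seen, also set transgenic replicates 2 and 3 above every wild type sample. Over all genes 8.35% did so. For the few named here, transgenic replicate 1 lay below wild type replicate 2. Insig1, a sterol-regulated ER protein, read 8.89, 9.83 and 9.87 in transgenic fat, against 8.61, 8.95, 8.63 and 8.25 in wild type fat (limma adjusted p = 0.622). Cox8b, a respiratory chain subunit of brown fat and muscle, read 4.83, 6.10 and 6.12 in transgenic fat, against 4.36, 4.99, 4.46 and 4.22 in wild type fat. Pgd, an NADPH-producing enzyme of the pentose phosphate pathway, read 9.29, 10.13 and 10.51 in transgenic fat, against 9.06, 9.57, 9.22 and 8.94 in wild type fat. None of these passed the test over all probe sets.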
